A study of Equus caballus with 16 samples.

Results

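The genes described here are 100 of the 21689 genes counted in 16 RNA libraries from horse tenocytes, the fibroblast-like cells that make and keep up tendon. They were higher with a short hairpin RNA (shRNA) against SCX than with a control hairpin in each of 4 fetal lines, while their average change over 4 adult lines was close to 0. The rule worked on CPM, the count of a gene divided by the total of its library and put on a common scale, and on the log2 ratio of CPM + 1 between the hairpin and the control library of each line. It kept genes with a mean of at least 2 CPM in the fetal hairpin libraries and a mean adult ratio between -0.2 and 0.2. It left out the 100 genes with the highest mean CPM in the control libraries. Of the 7386 genes that met these conditions, called candidates here, the 100 with the highest minimum ratio over the fetal lines were taken. The lowest minimum ratio of a gene on the list was 0.4726, and the next gene outside it had 0.4719. The ratios of all 8 lines chose these genes, so the ratios are given as a description with no test.

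SCX encodes Scleraxis, a basic helix-loop-helix transcription factor that marks tendon progenitors and mature tendon cells. It is known for activating genes of the tendon matrix, type I collagen among them, and is needed for the formation of force-transmitting tendons in the embryo. A short hairpin RNA is processed in the cell into a small RNA that directs the degradation of matching transcripts. The question behind the series is whether the genes under Scleraxis control differ with the developmental stage.

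Each line was sequenced once with a stable shRNA vector (pLKO.1-puro) against SCX (shSCX) and once with the same vector carrying a scrambled non-target hairpin (NT). The adult lines S, TB130911, TB171012 and TB180412 came from horses of 2 to 10 years, and the fetal lines 271d, 316d, 319d and 320d are named by gestation day. Cells were at passage 5 in TB180412 and at passage 7 or 8 in all other lines, and were grown in serum-containing medium. The hairpin was designed on human SCX, and each hairpin is 1 sequence, read in 1 library per line. An effect through SCX, other effects of a sequence and differences between single libraries cannot be told apart here. All cells carried a puromycin resistance vector, the NT controls included. The deposited tables give Ensembl identifiers without symbols, and none of the 100 genes could be paired with a symbol, a sequence or a position here. Their functions, the level of SCX itself and tenocyte markers were therefore not analysed here, and no more than 2 identifiers are given.

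Totals ran from 20865437 to 26157162 counts in the adult and from 17628158 to 23148025 in the fetal libraries. Behind each library's values, the median count of the 100 genes ran from 161.5 to 769, and 92 of the 100 had at least 10 counts in all 16 libraries. The 316d libraries stood apart from the other pairs. Deviations from the group means were correlated between the shSCX and NT library of a line, over the 11067 genes above the level floor of 2 CPM. This gave 0.90 in S, 0.73 in TB130911, 0.88 in TB171012, 0.72 in TB180412, 0.73 in 271d, 0.77 in 319d and 0.86 in 320d, but 0.31 in 316d. The shSCX library of 316d correlated slightly better with the NT library of 271d (0.36) than with its own. Several fetal averages and counts below are also given without 316d, and all others include it.

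With their reads added up, the 100 genes were 2.04 ± 0.58 times higher with shSCX over the fetal lines and 1.06 ± 0.14 times over the adult lines (SD, n = 4 each). Over the fetal lines other than 316d the factor was 1.75 ± 0.096 (SD, n = 3). Together they held 3480 CPM in the NT and 5885 CPM in the shSCX library of 271d, 1847 and 5353 CPM in 316d, 2068 and 3523 CPM in 319d, and 1582 and 2947 CPM in 320d. Every fetal shSCX library was above its own NT library, which the rule required of each gene. The summed level was 1.69 times higher with shSCX in 271d, 2.90 times in 316d, 1.70 times in 319d and 1.86 times in 320d. In adult lines the sums were 1696 and 1886 CPM in S, 4055 and 4246 CPM in TB130911, 1960 and 2382 CPM in TB171012, and 4076 and 3587 CPM in TB180412. In bulk libraries such as these, a change in the share of cells of one kind and a change of RNA per cell cannot be told apart.

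Gene by gene, the mean fetal ratio ran from 0.54 to 3.09, with a median of 0.88, or 1.85-fold. It was at least 1 for 36 of the 100 genes, or for 18 when 316d was left out, and at least 2 for 2 of them. Only 6 genes had all 4 fetal ratios at or above 1. The typical gene on the list was therefore higher by less than 2-fold, and large ratios were few. The median ratio of the 100 genes was 0.67 (271d), 1.41 (316d), 0.69 (319d) and 0.71 (320d). The 316d line had the highest fetal ratio for 76 of the 100 genes, while 271d had the lowest for 39, 319d for 33, 320d for 23 and 316d for 5. Over all candidates 316d was highest for 34.8%. Without 316d the median of the mean fetal ratios was 0.70, and with any other fetal line left out it was 0.95 or 0.96.

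**Figure D1:**
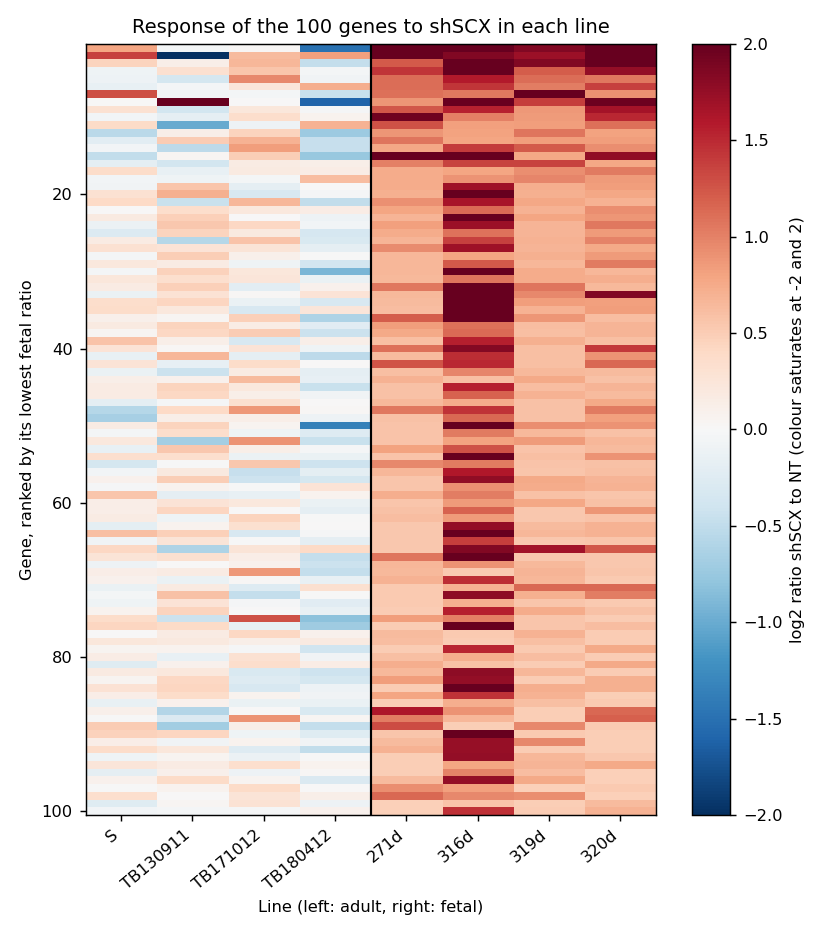
The log2 ratio of shSCX to NT is drawn for the 100 genes (rows, ranked by their lowest fetal ratio) in the 4 adult lines (left) and the 4 fetal lines (right), with red for higher and blue for lower with shSCX. All fetal cells are red by the rule and 316d is the darkest column, with a median of 1.41, while the adult columns mix both colours.

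On the scale of library totals, most genes had fetal ratios above 0. The median ratio of all 11067 genes above the level floor was 0.10 (271d), 0.14 (316d), 0.12 (319d) and 0.06 (320d), against -0.07 to 0.04 in adult lines. TMM scaling, which sets libraries to a common level over most genes, lowered these fetal medians by 0.10, 0.14, 0.10 and 0.08 on the log2 scale. With TMM scaling the 100 genes had median ratios of 0.57 (271d), 1.27 (316d), 0.59 (319d) and 0.64 (320d), and 100 of 100 remained above 0 in each of these lines. That count was fixed by the choice, since every fetal ratio on the list was at least 0.4726 and the shifts were smaller.

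Adult lines did not respond evenly. The adult window bounds the mean over 4 lines and leaves the single lines free. The median ratio of the 100 genes was 0.10 in S, 0.16 in TB130911, 0.12 in TB171012 and -0.12 in TB180412. The number of genes above 0 was 59 in S, 70 in TB130911, 66 in TB171012 and 30 in TB180412. TB180412 held the lowest adult ratio for 46 of the 100 genes. Between the highest and lowest adult line a gene's ratio differed by a median of 0.68, against 0.45 over all candidates, and by more than 1 for 27 of the 100 genes, against 6.08% of candidates. All 4 adult ratios lay within 0.5 of 0 for 59 of the 100 genes and for 84.1% of candidates.

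In 37 of the 100 genes at least 1 adult ratio reached the list's lower bound of 0.4726, which 8.98% of candidates did. This count was 17 in TB171012, 13 in TB130911, 7 in S and 4 in TB180412. A ratio as far below 0 was seen for 16 genes in TB180412, 8 in TB130911, 4 in S and 1 in TB171012. A mean near 0 was thus often made of adult lines that moved apart. The lowest fetal ratio was above the highest adult ratio for 85 of the 100 genes, against 10.4% of candidates, and the rule used these values. For the other 15 the stages overlapped. TB171012 reached the lowest fetal ratio in 7 genes, S and TB130911 in 4 each, and TB180412 in 0.

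The mean adult ratio of the 100 genes leaned upward within the window. It was above 0 for 66 of them, against 44.7% of candidates, and between 0.1 and 0.2 for 43, against 16.9% of candidates. The list is one end of a continuous range. Among genes above the level floor, with the 100 most abundant left out, 495 had every fetal ratio at or above 0.4726. Their mean adult ratio was between -0.2 and 0.2 for the 100 genes of the list, between 0.2 and 0.5 for 144, between 0.5 and 1 for 192 and above 1 for 58. It was below -0.2 for 1 gene, at -0.21. The median over the 495 genes was 0.50. Of all genes above the floor, with the same exclusion, 67.3% had a mean adult ratio in the window, against 20.2% of the 495.

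**Figure D2:**
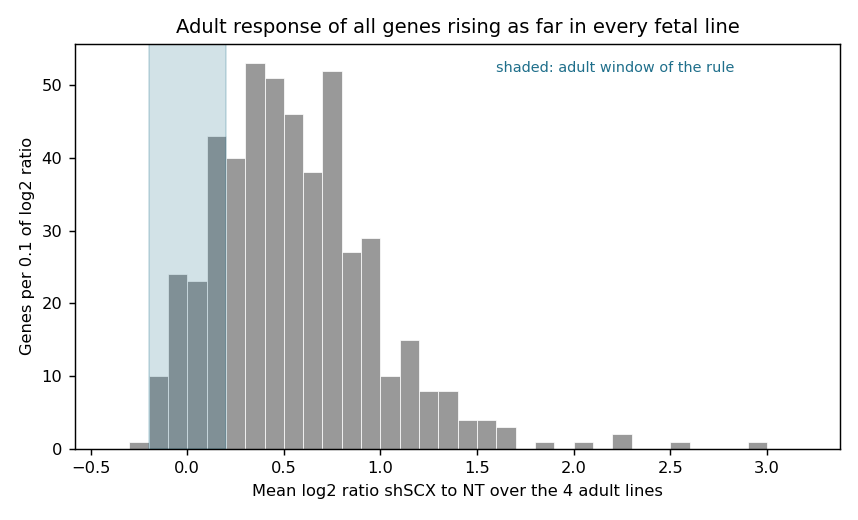
Histogram of the mean adult log2 ratio (horizontal axis) of the 495 genes whose ratio was at least 0.4726 in every fetal line, in steps of 0.1, with the adult window of the rule shaded. The 100 genes in the window form the lower flank of a single broad distribution with a median of 0.50.

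A line that took no part in the choice gave a value that the rule did not use. For each of the 8 lines the rule was applied to the other 7, and the median ratio of the 100 genes so chosen was read in the line left out. In left-out fetal lines it was 0.47 (271d), 1.17 (316d), 0.61 (319d) and 0.63 (320d). All genes above the level floor had medians of 0.10, 0.13, 0.11 and 0.06 there. The number of chosen genes above 0 was 95 (271d), 95 (316d), 97 (319d) and 97 (320d), where 56.8% to 63.2% of all genes above the floor were. Most genes picked from 3 fetal lines were therefore also higher with shSCX in the fourth. The median over left-out fetal lines averaged 0.72 ± 0.31 (SD, n = 4), and 0.57 ± 0.086 (SD, n = 3) without 316d.

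In left-out adult lines the median was 0.16 in S, 0.30 in TB130911, 0.42 in TB171012 and -0.07 in TB180412, or 0.20 ± 0.21 on average (SD, n = 4). Genes above 0 numbered 68 in S, 81 in TB130911, 82 in TB171012 and 40 in TB180412. The corresponding medians of all genes above the floor were -0.02, -0.00392, 0.04 and -0.07. In TB171012, 46 of the 100 genes chosen without it had a ratio of at least 0.4726, as did 9.95% of all genes above the floor. In 3 of 4 adult lines the genes were thus above the median of all genes when that line had not been used to hold the adult mean near 0, and in TB180412 they stood at it. The highest left-out adult value (0.42, TB171012) was below the lowest left-out fetal value (0.47, 271d), by a small margin. All genes above the floor had medians of 0.04 in TB171012 and 0.10 in 271d. Relative to these medians, 271d was not above TB171012. No test was made, since the 8 lists differ and share most of their lines.

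**Figure D3:**
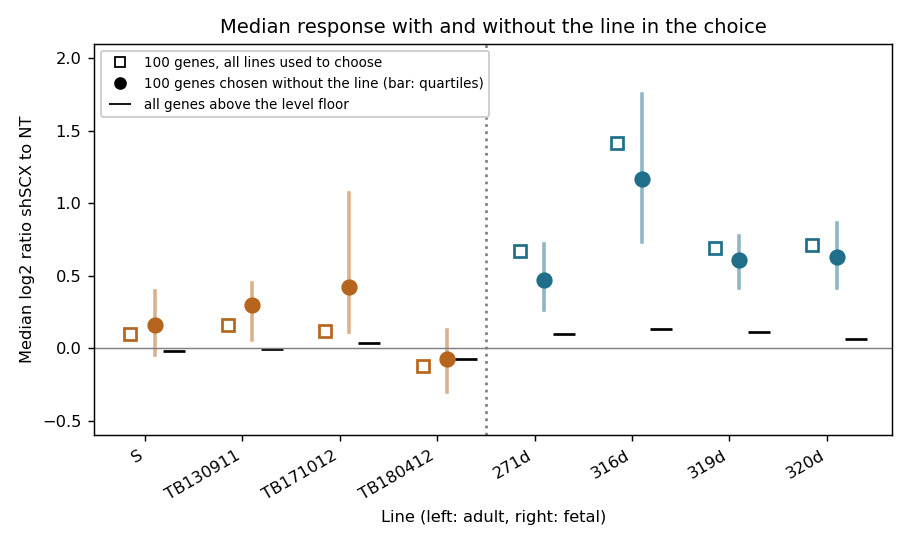
Median log2 ratio of shSCX to NT in each line for the 100 genes chosen with all lines (open squares), for 100 genes chosen without that line (filled circles, bars for the quartiles) and for all genes above the level floor (dashes). The filled circles are below the squares in every fetal line (0.47 to 1.17) and above them in every adult line (-0.07 to 0.42).

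Choosing without a line also showed how far the list rests on each one. Of the 100 genes, 84 were chosen again without 316d, 83 without S, 75 without TB130911, and 68 each without 319d or 320d. The overlap was 66 without TB180412, 60 without TB171012 and 49 without 271d. The overlap was thus smallest without 271d and not without 316d, the line with the largest response. The rule ranks by the lowest fetal ratio. That ratio was in 271d for 39 genes, 319d for 33, 320d for 23 and 316d for 5, so the overlaps are not independent of the rule. The list chosen without 316d had median ratios of 0.72 in 271d, 0.71 in 319d and 0.74 in 320d.

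With the control hairpin alone, these genes differed strongly between cultures. In NT libraries their median level on the log2(CPM + 1) scale was 3.31 in S, 3.55 in TB171012, 4.49 in TB130911 and 4.71 in TB180412. In fetal NT libraries it was 4.35 (271d), 3.58 (316d), 3.67 (319d) and 3.20 (320d). The candidates moved less, with medians of 4.55 to 4.90 over adult and 4.53 to 4.72 over fetal NT lines. Adult NT levels took part in the rule through the ratios and through the exclusion of the 100 most abundant genes. The standard deviation of a gene's level between adult NT lines had a median of 0.74 over the 100 genes and 0.29 over all candidates. Between fetal NT lines it was 0.59 against 0.27.

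Some lines kept the same relative position in most of the genes, with each position counted on its own. In 85 of the 100 genes both TB130911 and TB180412 were above both S and TB171012 among adult NT libraries, against 44.2% of candidates. In 78 of the 100 genes 271d was the highest fetal NT library, against 34.9% of candidates, and in 67 genes 320d was the lowest, against 39.6%. These orders were read from the data and were not tested. They were also seen in the list chosen without 316d, where the first held for 81 genes and the second for 69. That list shares 84 genes with the 100 and was read in the same NT libraries, so it adds no independent support. Levels in 316d went from the range of 319d and 320d with NT to that of 271d with shSCX, at medians of 3.58 and 4.93. What part this difference between cultures had in the fetal response was not tested.

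**Figure D4:**
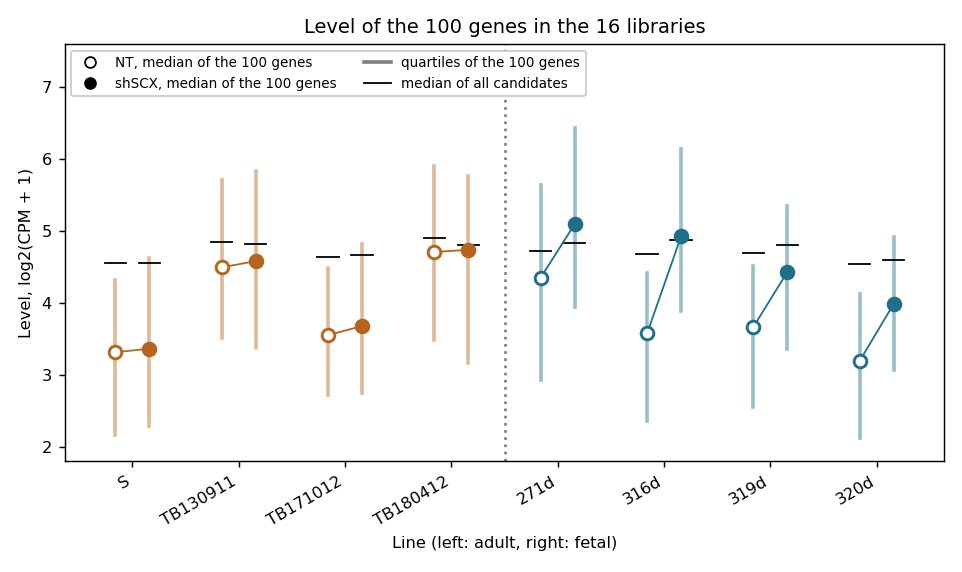
Median level of the 100 genes, log2(CPM + 1), in the NT (open) and shSCX (filled) library of each line, with bars for the quartiles over genes and a short black line for the median of all candidates. The genes spread from 3.20 to 4.71 between NT lines, and rise from NT to shSCX in each fetal line, where candidate medians stay between 4.53 and 4.88.

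With shSCX the fetal libraries reached medians of 5.10 (271d), 4.93 (316d), 4.43 (319d) and 3.99 (320d). Adult shSCX libraries stood at 3.36 in S, 3.68 in TB171012, 4.58 in TB130911 and 4.74 in TB180412. The 2 stages overlapped in both conditions. For 83 of the 100 genes the mean fetal NT level lay within the range of the 4 adult NT libraries, for 14 below it and for 3 above it. For 71 genes the mean fetal shSCX level lay within that adult NT range and for 29 above it.

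Averaged over lines, 89 of the 100 genes were lower in fetal than adult NT libraries, with a median difference of -0.40 (log2), and 95 were higher in fetal than adult shSCX libraries, with a median difference of 0.45. Over candidates these medians were -0.05 and 0.05, and 38.4% and 61.3% were higher in fetal lines. Choosing genes for a rise in fetal lines favours low fetal NT and high fetal shSCX levels, so these directions are not independent of the rule. In left-out lines, the genes' NT level minus the mean adult NT level was 0.45 (271d), -0.45 (316d), -0.26 (319d) and -0.79 (320d). Over all genes above the floor these medians were -0.00944, -0.02, -0.01 and -0.15. The genes' fetal NT level was thus below the adult mean in 316d, 319d and 320d and above it in 271d. The NT medians of 316d (3.58) and 319d (3.67) given above were still higher than those of the adult lines S (3.31) and TB171012 (3.55). Fetal NT libraries were all below or all above the adult NT libraries in 0 of the 100 genes (0.433% and 0.352% of candidates). With shSCX, all fetal libraries were above all adult libraries in 8 of them (0.826% of candidates).

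The fits over all genes were read for the 100 genes as a description. With edgeR's quasi-likelihood test and the line as a block, 91 of 100 passed an adjusted p of 0.05 as higher with shSCX in fetal lines, where 9.18% of 12418 tested genes did. The rule used this contrast, so nothing is read from the count. It was 98 without 316d, 76 without 271d, 46 without 319d and 10 without 320d. Over all tested genes 2138 of 12418 passed in either direction with all lines, and 1732 of 12439, 2221 of 12386, 789 of 12434 and 270 of 12471 in those 4 fits. The median fitted log2 change of the 100 genes stayed between 0.71 and 0.94 in these fits, and was 0.88 in all 4 lines. Without the block 2 of the 100 genes passed, and 58 of all 12418. In adult lines 99 of the 100 genes passed the filter on low counts and 0 were called with edgeR, against 2.6% of 12513 genes. At an unadjusted p under 0.05 there were also 0, and 0 passed with DESeq2, against 5.67% of genes. The adult window holds these counts near 0, so nothing is read from them. Without TB130911, 1 of the genes passed with edgeR as higher with shSCX, as did 160 of 12475 genes in either direction.

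In the test of the difference between the fetal and adult effects, 0 of the 100 genes passed with edgeR, as did 0% of 12888 genes. At an unadjusted p under 0.05 there were 90 of the 100 genes and 2006 of all tested genes. Without 316d, 0 passed and 86 of the 100 genes had an unadjusted p under 0.05, as did 1122 of 13007 genes. With the DESeq2 Wald test 15 of the 100 genes passed, all with the higher effect in fetal lines, against 0.272% of genes. The fitted difference had a median of 0.80 on the log2 scale over the 100 genes and ran from 0.28 to 7.90. The choice of genes sets the size of these fitted differences.

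Between fetal and adult NT libraries 0 of 99 tested genes passed with edgeR (0.00807% of 12384 genes), with 5 at an unadjusted p under 0.05, as had 348 of all genes, and 1 passed with DESeq2 as lower in fetal lines (0.0969% of genes). The genes with an unadjusted p under 0.05 were 3 without 316d (338 of 12575 genes) and 31 without 271d (875 of 12524), with 0 passing in either fit. Between fetal and adult shSCX libraries 0 of 100 passed with edgeR (0.00801% of 12482 genes), with 19 at an unadjusted p under 0.05, as had 553 of all genes, and 5 passed with DESeq2 as higher in fetal lines (0.264% of genes). Without 316d 0 passed with edgeR and 12 had an unadjusted p under 0.05 (393 of 12661 genes), and without 271d 8 had (376 of 12590). Both stage contrasts share libraries with the ratios that chose the genes. The choice favours low fetal NT and high fetal shSCX levels, so nothing is read from these counts. Lines were not paired between the stages, and the spread between lines described above entered these tests in full. The median standard error of a log2 difference over the 100 genes was 0.42 between NT and 0.41 between shSCX libraries, against 0.17 for the paired fetal effect.

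ENSECAG00000023841 had the highest minimum fetal ratio. Its level in fetal lines went from 3.71 to 28.3 CPM in 271d, from 1.91 to 54.9 CPM in 316d, from 5.01 to 20.7 CPM in 319d and from 2.68 to 44.1 CPM in 320d. All 4 fetal shSCX libraries were above all 4 fetal NT libraries. The ratios averaged 3.09 ± 1.06 (SD, n = 4), and the lowest was 1.85. In adult lines the level went from 1.25 to 2.88 CPM in S, from 0.436 to 0.391 CPM in TB130911, from 2.37 to 2.41 CPM in TB171012 and from 19.1 to 6.19 CPM in TB180412. The mean adult ratio of -0.18 came from a rise of 0.79 in S, a fall of 1.48 in TB180412 and values near 0 in the other lines. All 4 fetal shSCX libraries, at 20.7 CPM or more, were above every adult library of this gene, the highest of which was the NT library of TB180412. Between the stages, edgeR gave a log2 difference fetal minus adult of 3.63 (SE 0.67, edgeR adjusted p = 0.386) with shSCX and -0.66 (SE 0.93, edgeR adjusted p = 0.998) with NT, neither past the threshold in edgeR. DESeq2 gave 3.61 (SE 0.60, DESeq2 adjusted p = 8.83e-06) with shSCX, past the threshold, and -0.66 (SE 0.87, DESeq2 adjusted p = 0.9996) with NT. The gene was picked by ratios from these same libraries, so these fits describe it and nothing is read from their p-values.

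ENSECAG00000007734 had the highest mean CPM of the 100 genes over the fetal shSCX libraries, though another gene of the list was higher in 271d. It went from 202 to 347 CPM in 271d, from 202 to 535 CPM in 316d, from 138 to 324 CPM in 319d and from 201 to 383 CPM in 320d. Again no fetal NT library reached the lowest fetal shSCX library. The fetal ratios averaged 1.08 ± 0.28 (SD, n = 4), with counts of 3040 or more in each fetal library. In adult lines it went from 116 to 111 CPM in S, from 380 to 264 CPM in TB130911, from 107 to 192 CPM in TB171012 and from 272 to 197 CPM in TB180412. TB171012 rose by 0.84 on the log2 scale, more than the lowest fetal line (0.78), while TB130911 fell by 0.52 and TB180412 fell by 0.46. The adult NT libraries of this gene, at 107 to 380 CPM, reached above the fetal shSCX libraries of 271d and 319d. CPM is not divided by transcript length, so these values compare libraries and not genes.

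**Figure D5:**
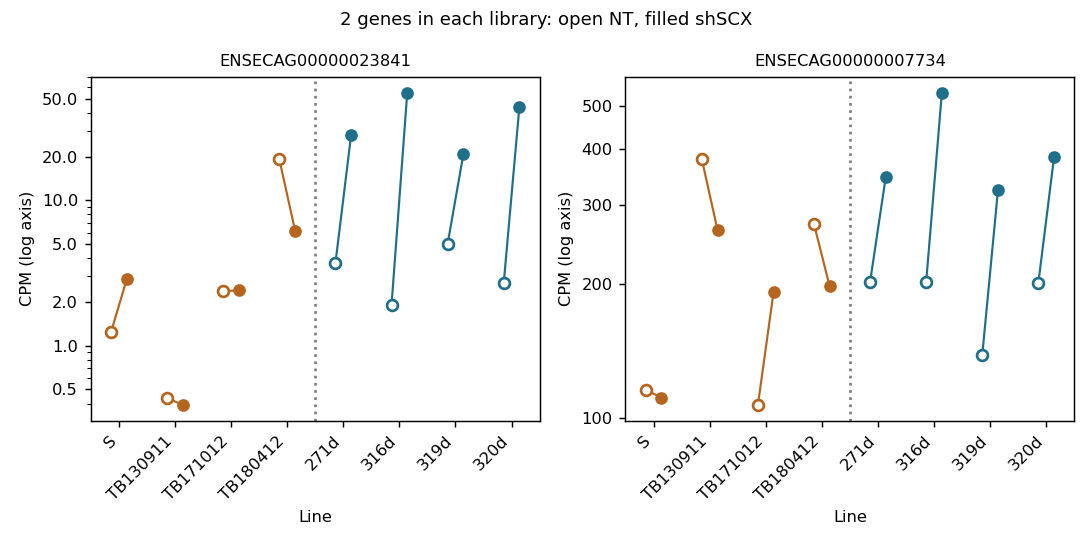
Level in CPM (log axis) of ENSECAG00000023841 (left) and ENSECAG00000007734 (right) in the NT (open) and shSCX (filled) library of each line. Fetal lines rise in both, by means of 3.09 and 1.08 on the log2 scale, while adult lines go up or down with the line.

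Opposed adult lines were most extreme in 2 other genes, chosen here after their values were seen. The gene with the next highest minimum fetal ratio (1.71) rose from 0.0989 to 5.88 CPM in 271d, from 3.10 to 13.8 CPM in 316d, from 1.14 to 5.99 CPM in 319d and from 5.36 to 79.0 CPM in 320d. It had only 2 counts in the NT library of 271d and 25 in that of 319d, so the size of the rise in 271d is imprecise. In the adult line TB130911 it fell from 58.6 to 8.61 CPM, while it went from 38.6 to 102 CPM in S and from 1.10 to 2.26 CPM in TB171012. In TB180412 it was also higher with shSCX, with a ratio of 0.82. It had the widest adult range of the 100 genes, 4.00 on the log2 scale. Its adult mean of 0.05 therefore stands for no single adult line.

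The other gene was at 0 counts in all 4 fetal NT libraries and had between 19.6 and 56.7 counts in the fetal shSCX libraries. With 3 counts over the 4 NT libraries taken as the limit that 0 allows, its pooled CPM was at least 54.9-fold higher with shSCX, for counting error only. In adult lines it had counts in 2 of 8 libraries, the shSCX library of TB130911 (82.7) and the NT library of TB180412 (47.8). Its presence thus changed between libraries in both directions in adult lines and in 1 direction in fetal lines. It was the 1 gene of the list that the filter on low counts removed from the adult fit. Its counts were not whole numbers, which in Salmon marks reads shared between similar transcripts, so its values are uncertain.

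Similarity of the lines' responses across the 100 genes was low. Spearman's rho of the ratios between pairs of fetal lines ran from 0.07 (271d with 316d) to 0.39 (319d with 320d) over these genes, a range the choice of genes narrows. Over the 7386 candidates it was 0.64 to 0.70 among 316d, 319d and 320d, and 0.30 to 0.38 between 271d and these. Adult lines differed in which fetal line they resembled. Over candidates, TB130911 had rho of 0.43 with 316d, 0.42 with 319d and 0.36 with 320d, but 0.11 with 271d, while TB171012 had 0.38 with 271d and -0.07 to -0.00603 with the other fetal lines. TB180412 had -0.35 with 316d. Among the 100 genes TB171012 had 0.43 with 271d and TB130911 had 0.34 with 316d. Genes are not independent replicates, and the adult window pulls adult lines apart, so these are descriptions.

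Genes that rose in every line of both stages gave a point of comparison. The same level floor and exclusion, with the 100 highest minimum ratios over all 8 lines, gave a list that shares 0 genes with the 100 described here, which both rules fix, since a gene of that list has every adult ratio above the adult window. Its minimum ratios ran from 0.51 to 1.72. The median mean ratio of that list was 1.26 in fetal and 0.97 in adult lines, against 0.88 and 0.08. Its genes varied less between adult NT lines, with a median standard deviation of 0.39 against 0.74. In 41 of its genes both TB130911 and TB180412 were above both S and TB171012, against 85, and 316d had the highest fetal ratio in 33, against 76. Both lists were chosen from the same ratios, and the difference between them was not tested.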

How the data were processed

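The authors made and deposited estimated counts per gene, in an adult and a fetal table with the same 21689 Ensembl identifiers. The estimated counts were deposited by the authors without pooling, 1 column for each library, per the file headers. The submitters' processing notes name FastQC, Salmon and R 3.5.2. Which transcripts and genome build were used, and how transcripts were summed to genes, is not given in the sources used here. No scaling had been applied, and 94.6% to 95.8% of a library's values were whole within 0.01. Because reads of near-identical gene copies are divided among them by Salmon, values of such copies are uncertain. In the RefSeq gene table (assembly TB-T2T) 0 of the identifiers were found, so gene lists and cell type markers were not analysed here. A pair of columns with the prefix TB and no number was assigned to TB171012, the adult title left over.

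Tables were joined by identifier, and CPM used column totals. Counts were rounded and tested with edgeR 4.0.16 in R 4.3.3 (TMM, quasi-likelihood test, filterByExpr, Benjamini-Hochberg over all genes tested, threshold 0.05) after a check on simulated data. Effects of shSCX were fitted with line as a blocking factor, because NT and shSCX libraries share their line, and stages were compared without one. Alternatives were DESeq2 1.42.0, limma 3.58.1 voom, DESeq2 size factors in edgeR, no filter on low counts, no block, each line left out, and for the list other pseudocounts (0.25 and 4 CPM), TMM scaling, a floor of 5 CPM, an adult window of 0.1 and ranking by the mean. TMM scaling with the list kept was added after seeing the data. Nothing in the labels says more of how the lines were derived, so p-values refer to these lines. With the line as a block they measure the spread of the hairpin effect across lines. In the stage comparisons they measure the spread of levels between lines. No 2 libraries of a group were identical. The closest pair had a chi-square of 43.3 per degree of freedom (genes with 20 or more counts in the pair), where sampling noise gives 1. As a check of the pairing, 7 of 8 shSCX libraries had their highest correlation with the NT library of the same line (0.31 to 0.90 within lines). The genes and the lists were chosen with earlier results of these data known. The identifiers printed are, by rule, the gene with the highest minimum fetal ratio and the gene with the highest mean CPM in fetal shSCX libraries.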

Additional observations from a re-analysis of the deposited data

Results flagged for a closer look

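Dixon's ratio was applied to 26 groups of 4 values, of which about 1 in 20 would exceed the 95% limit by chance, and 3 values exceeded it. The median ratio of the 100 genes was highest in 316d among fetal lines, at 1.41, and their summed CPM rose most there, 2.90-fold. Both values come from the same pair of libraries. ENSECAG00000007734 was lowest in 319d among fetal NT libraries, at 7.12 on the log2(CPM + 1) scale.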

How the results depend on the processing

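The number of the 100 genes called in fetal lines fell from 91 to 2 with no replicate block, where all called genes fell from 2138 to 58. It ran from 10 to 98 with a line left out, where all called genes ran from 270 to 2221. In adult lines it was 0 to 1 with a line left out, where all called genes ran from 27 to 237. DESeq2 called 15 of the 100 genes for the difference between the effects, 1 between NT and 5 between shSCX libraries. Over all tested genes DESeq2 called 38, 22 and 55 there, in either direction. With edgeR 0 of the 100 genes were called in each, and the cause was not tested. With the line as a paired block removed, counts stayed at 0 for adult lines and for the difference. All called genes were then 1 of 12513 and 0 of 12888, so these counts say nothing about the 100 genes. An adult window of 0.1 kept 47 of the 100 genes, by construction, and ranking by the mean kept 47 (the cause was not tested), while other settings of the rule kept 70 to 94. Leaving out a line kept 49 to 84. The average median in left-out lines ran from 0.60 (TMM) to 0.78 in fetal and from 0.17 to 0.22 in adult lines over the other settings tried. Genes at low counts limit the precision of single ratios, and 4 lines per stage limit every comparison.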
